A study of Danio rerio with 15 samples.

Results

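In pools of zebrafish embryos at 50% epiboly, 159 of 32520 genes set all 3 mutant groups on one side of both unmutated strains. Of these genes, 69 were higher and 90 were lower in all 3 mutants. The members were chosen on their measured values. Counts were turned into counts per 1000000 of a sample's total (CPM) and put on the scale log2(CPM + 0.5), and the 5 group means of each gene were sorted. A gene was kept where the largest gap between neighbouring means was at least 0.5, and where that gap parted the 3 mutants from the 2 strains. None of its 9 mutant samples could overlap any of its 6 strain samples, and its highest group mean had to reach 2 CPM. The upper limit of 200 genes was not reached.

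The groups were axin2-/-;nkd1-/- double mutants, axin2-/- mutants, nkd1-/- mutants, and the strains TL and Tu, with 3 samples in each. The axin2-/- fish were made with Cas9 in TL and the nkd1-/- fish with Cas9 in Tu, and the double mutants came from crossing those lines. Each sample was RNA from 10 embryos. Per the series record, the samples of a group were collected on different days from the same parents, so each genotype is 1 family. A p-value between groups therefore measures the spread between collections of a family, and a genotype cannot be told apart from the family that carries it. All 3 mutant groups also share a history of Cas9 targeting and line breeding, which cannot be told apart from the mutations.

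Wnt ligands stabilise beta-catenin, which then switches on target genes in the nucleus. Axin2, a scaffold of the complex that destroys beta-catenin, and Nkd1, which binds Dishevelled, are themselves induced by Wnt signalling and act as negative feedback regulators. At 50% epiboly the blastoderm has spread over the upper yolk, gastrulation movements are starting, and zygotic Wnt signalling at the margin patterns ventral and posterior fates.

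Neither targeted transcript was lower in the mutants that lack its function. The axin2 gene averaged 104 CPM in the double mutant, 95.0 CPM in axin2-/- and 85.4 CPM in nkd1-/-, against 69.3 CPM in TL and 62.3 CPM in Tu. The mutants together were 0.55 ± 0.08 (SE) log2 units above the strains, with an adjusted p of 5.07e-05 in edgeR's quasi-likelihood test with Benjamini-Hochberg adjustment. The samples did not overlap, but the gap of 0.30 left axin2 out of the 159. The nkd1 gene averaged 23.0, 20.5 and 21.4 CPM in the double, axin2-/- and nkd1-/- mutants, against 15.3 CPM in TL and 12.3 CPM in Tu. Its difference was 0.68 ± 0.13 (SE, adjusted p = 0.000587, the same edgeR test), and its samples overlapped. A gene count does not show where a Cas9 lesion lies or what it does to the protein, so these levels do not check the genotype labels.

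Totals per sample ran from 44098543 to 68135442 counts. A count of 0 in a sample allows a level of up to 0.0440 to 0.0680 CPM, taking 3 counts as the limit and covering counting error only. Reads from the mitochondrial genes were 1.40 to 2.73% of the counts in the mutants and 1.62 to 2.31% in the strains. In the mean of the mutants against the mean of the strains, 17.1% of the 21614 genes tested were called higher and 17.7% lower in edgeR at an adjusted p below 0.05. The summed CPM of enveloping layer markers ran from 9531 to 15323 in mutants and from 8994 to 11451 in strains, and 8 of the 15 genes tested were called higher in the mutants and 1 lower. For yolk syncytial layer markers the sums were 765 to 1031 CPM in mutants and 716 to 825 CPM in strains, with 3 of 8 tested genes called higher and 1 lower. Genes that come on later in gastrulation summed to 3806 to 5223 CPM in mutants and 3556 to 4397 CPM in strains, and 9 of 15 were called higher and 1 lower. The keratin gene krt4 is on both this list and the enveloping layer list, and was called higher. Its group means ran from 2099 CPM in TL to 2969 CPM in nkd1-/-, a large part of the later gastrulation sum, so these lists are not separate measures. Germ cell markers summed to 368 to 687 CPM in mutants and 511 to 639 CPM in strains, and 1 of 10 was called higher and 2 lower. For maternal transcripts the sums were 6549 to 7208 CPM in mutants and 6316 to 7145 CPM in strains. Of the 18 tested, 2 were called higher and 3 lower. All lists were written with earlier results of these data known. None of the 159 was on any list in this paragraph, and the part of cell makeup or stage in the differences of the 159 was not tested. In RNA from whole embryos, fewer cells of a type and less RNA per cell cannot be told apart.

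**Figure D1:**
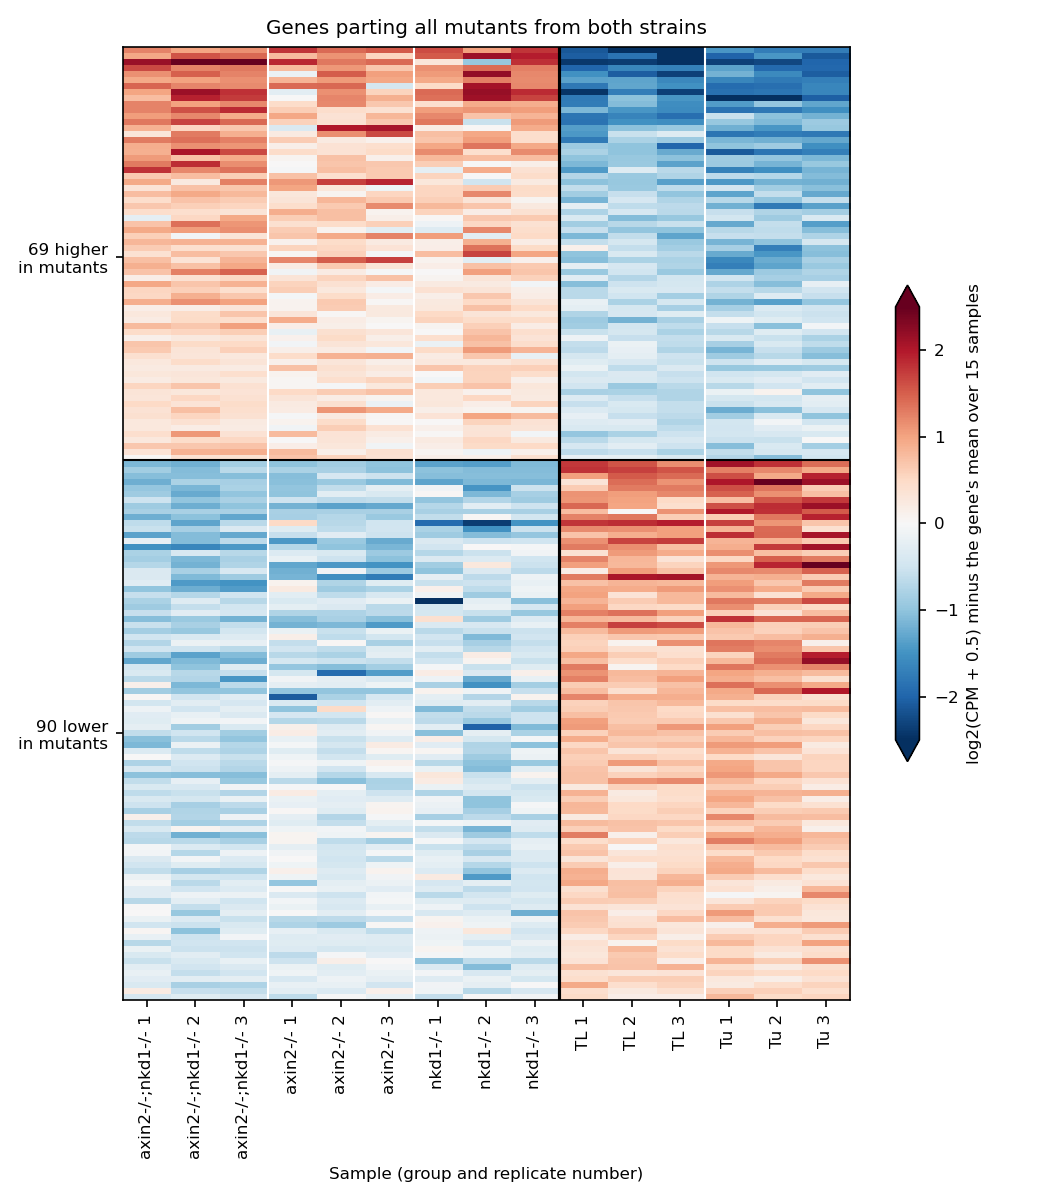
Each row is 1 of the 159 genes and each column 1 of the 15 samples, double mutants first and Tu last; colour gives log2(CPM + 0.5) minus the gene's mean over the 15 samples. The 69 genes higher in the mutants are above and the 90 lower ones below, and the split at the strains is what the members were chosen for.

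The gap between the nearest mutant and strain means was modest in most members. No overlap of the samples in the higher direction was met by 1.21% of the 21614 genes tested and in the lower direction by 1.45%, whatever the gap. The median gap was 0.88 log2 units among the higher genes and 0.77 among the lower genes, and it reached 1 in 27 and 25 of them. The largest gap was 2.77 for RHCG on the higher side and 2.46 for cyp2x8 on the lower side. Just inside the limit of 0.5 were PLIN2, a lipid droplet coat protein, at a gap of 0.50, and SCOC, a coiled-coil protein of the Golgi, also at 0.50. Just outside lay prdm1b, a transcriptional repressor, at 0.477, and the clone-named gene si:zfos-169g10.3 at 0.498. Of all genes at 2 CPM or more, 132 had mutant means above strain means by 0.5 and 194 had them below. Asking that this be the largest gap left 85 and 122, and asking for no overlap left the 69 and 90.

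Many members were weakly expressed. Their highest group mean had a median of 9.58 CPM on the higher side and 7.73 CPM on the lower side, against 18.4 CPM over all 14383 genes that reach 2 CPM. It was below 10 CPM in 85 of the 159 (53.5%) and in 36.3% of all those genes. In 40 members all group means on the low side were under 1 CPM. Only 16 members reached 100 CPM. The spread between replicates was also wider, with a median within-group SD of 0.276 log2 units against 0.217 over all genes.

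When the choice was made on 2 of the 3 samples of each group, most of the chosen genes were parted in the same direction in the samples left out. With the samples numbered 1 left out, the rule chose 108 higher genes, and in 79 (73.1%) all 3 left-out mutants lay above both left-out strains. Over all genes at 2 CPM that share was 8.18%. For the 115 lower genes it was 91 (79.1%), against 11.9% of all genes. Leaving out the samples numbered 2 gave 70 of 79 higher genes (88.6%, all genes 11.0%) and 79 of 85 lower genes (92.9%, all genes 15.3%). Leaving out those numbered 3 gave 76 of 88 (86.4%, all genes 10.7%) and 104 of 132 (78.8%, all genes 9.62%). Not all genes chosen in this way were members. With the samples numbered 1 left out, 56 of the 108 higher and 67 of the 115 lower genes were members. The counts were 55 of 79 and 65 of 85 without those numbered 2, and 57 of 88 and 74 of 132 without those numbered 3. The shares over all genes cover any gap, and genes with a like gap were not compared. The contrast with them is therefore a description and no support for the members. The left-out samples came from the same families, so these shares describe repeat collections and not other families.

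Among the genes higher in the mutants, the largest gaps belonged to genes that were close to silent in both strains. RHCG, an ammonia channel of the Rhesus glycoprotein family in mammals, had 8.82, 7.30 and 8.16 CPM in the double mutant, 13.1, 9.92 and 10.8 CPM in axin2-/- and 11.6, 7.50 and 13.1 CPM in nkd1-/-. It had 0.409, 0.0760 and 0.0883 CPM in TL and 0.928, 0.683 and 0.680 CPM in Tu. The lowest mutant sample was far above the highest strain sample, and Tu was above TL. The neuronal intermediate filament gene neff1 had 7.59, 11.7 and 10.6 CPM in the double mutant, 6.64, 8.52 and 5.51 CPM in axin2-/- and 11.4, 17.6 and 15.5 CPM in nkd1-/-. Its strain values were 0.483, 0.646 and 0.177 CPM in TL and 0.527, 1.005 and 0.460 CPM in Tu. The lowest mutant sample, in axin2-/-, was more than 5 CPM, well above the highest strain sample.

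The complement component gene c7b, whose product helps to form the membrane attack complex, varied widely among the mutants. It had 19.3, 44.8 and 31.7 CPM in the double mutant, 15.8, 10.6 and 11.4 CPM in axin2-/- and 4.97, 1.82 and 15.2 CPM in nkd1-/-. The strain samples had 0.334, 0.361 and 0.159 CPM in TL and 0.380, 0.417 and 0.620 CPM in Tu. The double mutant samples were the 3 highest of all 15, and the strains were separate from every mutant. The ATP-binding cassette transporter gene abcc6b.1, by contrast, was level across the mutants, at 5.06, 5.26 and 5.85 CPM in the double mutant, 4.67, 5.50 and 5.14 CPM in axin2-/- and 5.04, 6.35 and 5.99 CPM in nkd1-/-, against 0.632, 0.646 and 0.442 CPM in TL and 0.422, 0.341 and 0.380 CPM in Tu.

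Further genes with large gaps served unlike functions. MTMR1, a phosphoinositide phosphatase of the myotubularin family, spanned 2.52 to 14.8 CPM in the mutants against 0.159 to 0.970 CPM in the strains. KHK, the ketohexokinase that phosphorylates fructose, spanned 0.952 to 7.81 CPM in the mutants against 0.0211 to 0.304 CPM in the strains, and fut7, a fucosyltransferase, spanned 1.63 to 9.52 CPM in the mutants against 0.372 to 1.16 CPM in the strains. The G protein subunit gene gnao1b ran from 1.53 to 10.3 CPM in the mutants against 0.455 to 0.866 CPM in the strains, and the highest mutant mean was that of axin2-/- at 7.29 CPM. A gene annotated as the spliceosomal RNA U2 spanned 3.05 to 9.37 CPM in the mutants against 0.253 to 0.743 CPM in the strains. U2 has many near-identical copies in vertebrate genomes, so how reads were shared between them is uncertain. In each of these 9 genes both strain means were at or below 1.08 CPM.

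Among the abundant members, kif11, the mitotic kinesin that separates spindle poles, had 312, 365 and 330.3 CPM in the double mutant, 317, 289.9 and 266 CPM in axin2-/- and 306, 365 and 295 CPM in nkd1-/-. The strains had 199, 170.1 and 150.4 CPM in TL and 187, 186 and 217 CPM in Tu. All 9 mutant samples were higher, and the gap of 0.56 log2 units was small beside those of the weakly expressed genes. The zinc finger gene znf1065 spanned 226 to 412 CPM in the mutants against 94.8 to 199 CPM in the strains, and pnpla7a, a phospholipase of the patatin-like family, spanned 119 to 205 CPM in the mutants against 56.2 to 76.4 CPM in the strains. The znf genes of zebrafish form a large family of close copies, and their counts are uncertain for that reason.

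Several higher members are known from cell movement and adhesion, and apart from pcdh8 they were named after their values were seen. Members of related kinds were also lower in the mutants, among them CXCR3, mmp30 and TPM2, which are given below. The paraxial protocadherin gene pcdh8, which acts in gastrulation movements, had 208, 166 and 199 CPM in the double mutant, 147, 152 and 126 CPM in axin2-/- and 185, 278 and 238 CPM in nkd1-/-. It had 83.6, 114 and 78.0 CPM in TL and 59.0, 88.9 and 69.9 CPM in Tu. The mean was highest in nkd1-/-, and axin2-/- lay nearest to the strains. PRICKLE1, a core component of planar cell polarity signalling, had 55.9, 50.4 and 59.1 CPM in the double mutant, 35.0, 47.7 and 37.9 CPM in axin2-/- and 34.1, 50.5 and 47.9 CPM in nkd1-/-, against 25.8, 22.5 and 17.6 CPM in TL and 8.83, 11.8 and 15.7 CPM in Tu. Each Tu sample of PRICKLE1 was below each TL sample, while the samples of the single mutants overlapped.

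MYO10, a motor of filopodia, spanned 45.2 to 87.7 CPM in the mutants against 25.9 to 37.7 CPM in the strains. ITGB1, the beta1 integrin subunit, spanned 58.3 to 73.1 CPM in the mutants against 36.0 to 43.2 CPM in the strains, and PHLDB2, which anchors microtubules at the cell cortex, spanned 28.0 to 43.4 CPM in the mutants against 20.4 to 24.0 CPM in the strains. The chemokine gene cxcl12b spanned 11.8 to 20.7 CPM in the mutants against 4.58 to 7.98 CPM in the strains, and the Eph receptor gene EPHA4 spanned 5.44 to 12.9 CPM in the mutants against 1.12 to 5.24 CPM in the strains. Other higher members named after their values were seen included the transcription factor genes lhx1b (6.08 to 9.81 CPM in the mutants against 2.99 to 4.76 CPM in the strains) and FOXB1 (1.99 to 3.55 CPM in the mutants against 1.22 to 1.88 CPM in the strains). They also included TPH1, an enzyme of serotonin synthesis, at 14.4 to 26.2 CPM in the mutants against 7.38 to 10.1 CPM in the strains. No enrichment was tested, so these genes stand for themselves and not for a process.

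**Figure D2:**
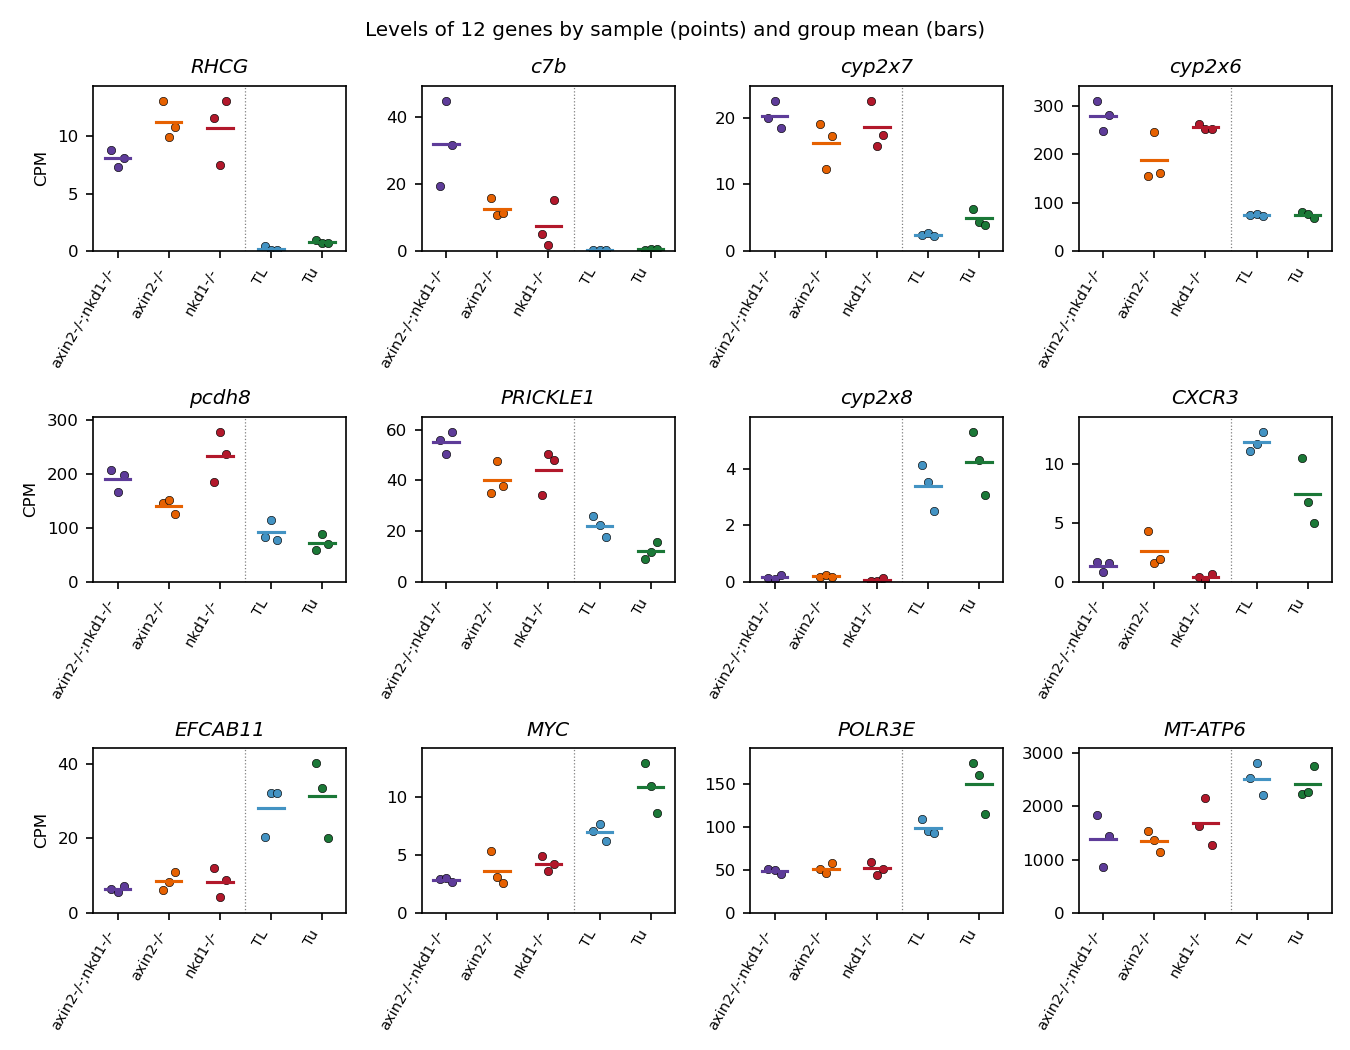
Points are the 3 samples of each group in CPM on a linear axis from 0, with the mutants left of the strains, and bars are group means, for 12 members from RHCG to MT-ATP6. In each panel the 9 mutant points lie on one side of the 6 strain points, which the choice of members requires.

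On the lower side, the P450 gene cyp2x8 had the largest gap and moved against its neighbours. Cytochrome P450 enzymes of the CYP2 family oxidise lipids and foreign compounds. In the mutants cyp2x8 had 0.121, 0.0907 and 0.253 CPM in the double mutant, 0.174, 0.246 and 0.177 CPM in axin2-/- and 0.0394, 0.0191 and 0.132 CPM in nkd1-/-. In the strains it had 4.13, 3.55 and 2.53 CPM in TL and 5.31, 4.32 and 3.08 CPM in Tu. The next genes along the chromosome, cyp2x7 and cyp2x6, were higher in the mutants. For cyp2x7 the values were 19.9, 22.5 and 18.4 CPM in the double mutant, 19.0, 12.3 and 17.3 CPM in axin2-/- and 22.5, 15.7 and 17.5 CPM in nkd1-/-, against 2.30, 2.66 and 2.19 CPM in TL and 6.28, 4.40 and 3.88 CPM in Tu. For cyp2x6 they were 310.5, 248 and 281 CPM in the double mutant, 155, 246 and 161 CPM in axin2-/- and 262, 253 and 252 CPM in nkd1-/-, against 73.2, 76.2 and 72.3 CPM in TL and 79.8, 76.1 and 67.8 CPM in Tu.

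These 3 genes follow each other in the reference annotation with no annotated gene between them. Another gene of the family, cyp2x9, averaged 0.600 CPM in the double mutant, 0.162 CPM in axin2-/- and 0.231 CPM in nkd1-/-, against 0.388 CPM in TL and 1.33 CPM in Tu, and its mutant samples overlapped those of TL. The genes cyp2x10.1 and cyp2x10.2 were at or near 0 counts throughout. The family's members are similar in sequence, and how reads that match several of them were counted is not given in the sources used here. A shift of reads between cyp2x8 and its neighbours was not tested.

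**Figure D3:**
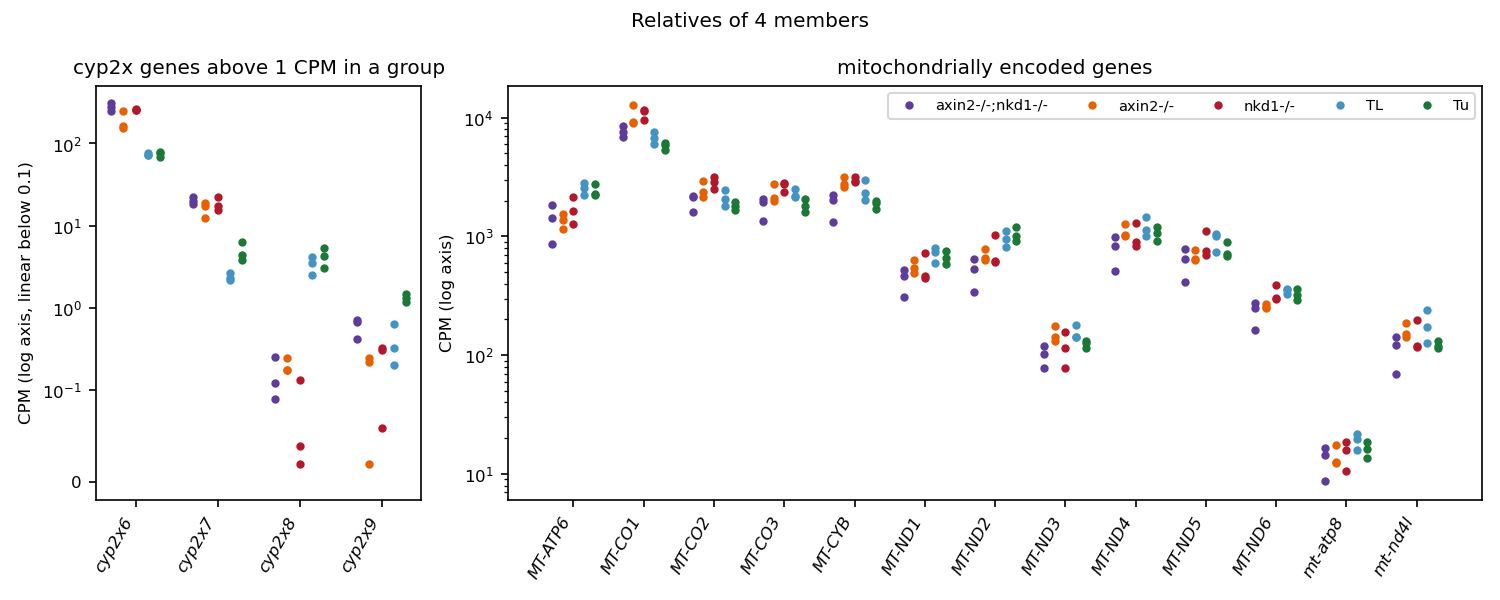
Points are samples in CPM, mutants left of strains within each gene, for cyp2x genes that exceed 1 CPM in a group (left, log axis that is linear below 0.1 CPM) and for mitochondrially encoded genes (right, log axis). The genes cyp2x6 and cyp2x7 are higher and cyp2x8 is lower in all 9 mutant samples, and MT-ATP6 is the mitochondrial gene whose mutant and strain samples do not overlap.

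EFCAB11, which encodes an EF-hand protein, had 6.37, 5.53 and 7.27 CPM in the double mutant, 6.21, 8.25 and 10.96 CPM in axin2-/- and 12.2, 4.30 and 8.76 CPM in nkd1-/-. The strains had 20.3, 32.2 and 32.3 CPM in TL and 40.3, 33.4 and 20.1 CPM in Tu. It was the member with the largest gap among the lower genes above 10 CPM in the strains. The gap was 1.68 log2 units. The chemokine receptor gene CXCR3 had 1.67, 0.862 and 1.62 CPM in the double mutant, 4.30, 1.58 and 1.90 CPM in axin2-/- and 0.394, 0.153 and 0.704 CPM in nkd1-/-, against 11.1, 11.7 and 12.8 CPM in TL and 10.6, 6.81 and 4.98 CPM in Tu. Within the mutants CXCR3 was lowest in nkd1-/- and highest in axin2-/-.

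Several other lower members with large gaps were weakly expressed in the mutants, and some of them were close to silent there. EMP3, a small tetraspan membrane protein, spanned 0 to 0.162 CPM in the mutants against 1.56 to 3.20 CPM in the strains. Its gap of 2.01 was 3.47 with a pseudocount of 0.1 CPM and 1.39 with 1 CPM. The alpha tubulin gene tuba8l3 spanned 0 to 0.534 CPM in the mutants against 1.56 to 4.74 CPM in the strains. The contactin-associated gene cntnap3 spanned 0.317 to 1.52 CPM in the mutants against 2.80 to 4.95 CPM in the strains, and the vasopressin receptor gene AVPR2 spanned 0.325 to 1.41 CPM in the mutants against 2.64 to 5.82 CPM in the strains. The clone-named gene si:ch211-171l17.7, named after its values were seen, had 0 counts in all 9 mutant samples. In the strains it had 0.985, 0.380 and 1.40 CPM in TL and 3.02, 2.62 and 2.02 CPM in Tu, so it was detected in each strain sample at a low level. The zinc finger gene znf1054 spanned 0.155 to 1.74 CPM in the mutants against 2.24 to 11.2 CPM in the strains, and med1l, related to a Mediator subunit, spanned 1.25 to 4.72 CPM in the mutants against 7.41 to 11.6 CPM in the strains. The metalloproteinase gene mmp30 was well detected in both classes, at 15.1 to 33.2 CPM in the mutants against 39.9 to 99.6 CPM in the strains.

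Further lower members served unlike functions, and no enrichment was tested. POLR3E, a subunit of RNA polymerase III, had 51.3, 50.1 and 45.1 CPM in the double mutant, 51.3, 46.2 and 57.8 CPM in axin2-/- and 59.7, 44.3 and 51.6 CPM in nkd1-/-. It had 109, 95.5 and 93.0 CPM in TL and 175, 161 and 116 CPM in Tu. The mutant samples were tightly grouped and TL lay between them and Tu. The coilin gene coil, whose product builds Cajal bodies, spanned 2.81 to 5.76 CPM in the mutants against 7.76 to 9.87 CPM in the strains, and cfdp1, linked to chromatin, spanned 72.0 to 103 CPM in the mutants against 134 to 159.5 CPM in the strains. RIC8B, a chaperone of G protein alpha subunits, spanned 7.08 to 31.8 CPM in the mutants against 49.1 to 62.1 CPM in the strains. The serine carboxypeptidase gene SCPEP1 spanned 63.7 to 96.6 CPM in the mutants against 109.5 to 208 CPM in the strains. Named after their values were seen, DNMT3A, a de novo DNA methyltransferase, spanned 0.880 to 2.03 CPM in the mutants against 2.11 to 5.73 CPM in the strains. The cell cycle kinase gene CDK6 spanned 8.21 to 15.3 CPM in the mutants against 19.7 to 33.6 CPM in the strains, and cdkn1cb, an inhibitor of such kinases, spanned 19.8 to 26.5 CPM in the mutants against 44.2 to 56.2 CPM in the strains.

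MT-ATP6, the mitochondrially encoded ATP synthase subunit, was the most abundant member. It had 1831, 869.8 and 1439.6 CPM in the double mutant, 1534, 1371 and 1147 CPM in axin2-/- and 1636, 2156 and 1269.8 CPM in nkd1-/-. The strains had 2532, 2817 and 2221 CPM in TL and 2239.5, 2280.2 and 2763 CPM in Tu. The highest mutant sample, an nkd1-/- one, was just below the lowest strain sample, one of TL, so the separation was narrow. The other mitochondrial genes measured overlapped between mutants and strains. MT-CO1, a subunit of cytochrome oxidase, averaged 7661 CPM in the double mutant, 10360.0 CPM in axin2-/- and 10793 CPM in nkd1-/-, against 6759 CPM in TL and 5760.0 CPM in Tu. In the mean of the mutants against the mean of the strains, MT-CO1 and MT-CO2 were called higher, at 0.62 and 0.32 log2 units (edgeR). MT-ND2, MT-ND1 and MT-ND6 were called lower, at -0.62, -0.42 and -0.30. Besides MT-ATP6, no other mitochondrial gene was called. In nkd1-/- against Tu, MT-ATP6 was not called, at -0.52 ± 0.23 (SE), adjusted p = 0.101 (edgeR). Reads from all mitochondrial genes together overlapped in share, as given above.

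Of the Wnt targets and feedback genes listed, only MYC was a member, and it was lower in the mutants. MYC, a growth-promoting transcription factor, had 2.92, 2.97 and 2.65 CPM in the double mutant, 5.32, 3.06 and 2.55 CPM in axin2-/- and 4.89, 3.64 and 4.26 CPM in nkd1-/-. The strains had 7.08, 7.72 and 6.18 CPM in TL and 13.0, 10.98 and 8.68 CPM in Tu. All mutant samples were below all strain samples, and Tu was above TL. The name table gives 2 genes the symbol MYC, and the other one stayed near 0.5 CPM in every group. Of the 30 listed gene IDs, 26 were tested. In the mean of the mutants against the mean of the strains, 11 were called higher and 2 lower (MYC and vent), where 17.1% of all genes tested were called higher and 17.7% lower. The list's median was 0.38 log2 units, against 0.01 over all genes tested. The list includes axin2 and nkd1 and was written with earlier results of these data known, so these values are a description only.

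Of the Wnt targets called in either direction, all but axin2 and MYC overlapped between mutant and strain samples. The transcription factor gene sp5l averaged 262 CPM in the double mutant, 127 CPM in axin2-/- and 255 CPM in nkd1-/-, against 67.7 CPM in TL and 89.8 CPM in Tu. LEF1, a nuclear partner of beta-catenin, averaged 42.3, 23.3 and 44.4 CPM in the double, axin2-/- and nkd1-/- mutants, against 16.4 CPM in TL and 13.4 CPM in Tu. FZD10, a Wnt receptor, averaged 13.7, 4.23 and 13.6 CPM in these mutants, against 3.79 CPM in TL and 5.62 CPM in Tu. For each of these genes axin2-/- lay nearer to the strains than the other mutants did, and for FZD10 its mean lay between TL and Tu. Among the targets called higher, this order did not hold for axin2, DACT1 and CCND1, where nkd1-/- lay nearest. CCND1, for example, averaged 1675 CPM in axin2-/-, against 1462 CPM in the double mutant, 1454 CPM in nkd1-/-, 1391 CPM in TL and 1273 CPM in Tu. None of the 27 gene IDs listed as Wnt pathway components was a member, and neither was any gene of the dorsal organizer, BMP, Nodal, FGF, maternal, p53, heat shock, nonsense-mediated decay, antigen presentation or germ cell lists.

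In the contrasts that the choice of members used, most members passed the edgeR test, which is a description and no support. In axin2-/- against TL, 68 of the 69 higher members were called higher and 81 of the 90 lower members lower, where 10.6% of all genes tested were called in each direction. In nkd1-/- against Tu the counts were 67 and 88, where 14.4% of all genes were called higher and 14.8% lower. When the double mutant was set against both strains averaged, all 69 and all 90 were called, where 19.7% were called higher and 17.7% lower.

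Differences between the mutants were not what the members were chosen on, although the rule keeps each step between neighbouring mutant means smaller than the gap to the strains. In the double mutant against nkd1-/-, 17 of 159 members (10.7%) were called at an adjusted p below 0.05, near the 11.5% of all genes called in this comparison (6.06% higher and 5.49% lower). The count was 9 without double mutant replicate 3, a fit for which the share of all genes is not given. In the double mutant against axin2-/-, 32 members (20.1%) were called, against 38.6% of all genes (19.0% higher and 19.5% lower). In axin2-/- against nkd1-/-, 39 members (24.5%) were called, against 37.3% of all genes (18.7% higher and 18.6% lower). Of the 159, 100 were called in none of these 3 comparisons. The rule favours such members, and the share of all genes called in none is not given. With each sample of the compared groups left out in turn, 9 of the 17, 16 of the 32 and 18 of the 39 members were called every time, and none changed direction.

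Where the double mutant differed from a single mutant, it was mostly the one farther from the strains, which was also so among genes at large. Of the 32 members called against axin2-/-, the double mutant was farther from the strains in 28 (87.5%) and nearer in 4. The matching genes at large are the 3045 tested genes that reach 2 CPM and have all 3 mutant means on one side of both strain means, at any gap. Of the 820 of them called against axin2-/-, the double mutant was farther in 73.7%. Of the 17 members called against nkd1-/-, it was farther in 15 (88.2%) and nearer in 2, compared with 67.5% farther among 271 genes called. Of the 39 members called between the single mutants, axin2-/- was farther in 16 (41.0%) and nearer in 23, compared with 35.6% farther among 755 genes called. Over all 159 members, called or not, the double mutant was farther than axin2-/- in 108 (67.9%) and farther than nkd1-/- in 96 (60.4%), against 63.3% and 56.1% of the 3045 genes. The median difference in that direction was 0.23 and 0.12 log2 units. The 159 members are among the 3045 genes, and the difference between these shares was not tested.

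The higher members that set the double mutant apart from both single mutants were few. The gene c7b, with the values given above, was 2.15 ± 0.49 (SE), adjusted p = 0.00782, in log2 units against nkd1-/-, and 1.37 ± 0.48 (SE), adjusted p = 0.0307, against axin2-/- in the same edgeR test. The call against axin2-/- was lost without double mutant replicate 2 (adjusted p = 0.135) or 3 (0.0661), without axin2-/- replicate 2 (0.0858) or 3 (0.0904), and in DESeq2 (0.0644). PELI3, an E3 ubiquitin ligase of Toll-like receptor signalling in mammals, had 4.07, 6.15 and 3.63 CPM in the double mutant, 1.35, 2.48 and 2.44 CPM in axin2-/- and 2.33, 1.34 and 1.54 CPM in nkd1-/-. It had 0.353, 0.475 and 0.230 CPM in TL and 0.485, 0.322 and 0.460 CPM in Tu. The differences of PELI3 were 1.43 ± 0.32 (SE) against nkd1-/- and 1.17 ± 0.32 (SE) against axin2-/-, with adjusted p-values of 0.00666 and 0.0076 in edgeR; without double mutant replicate 2 that against axin2-/- was 0.054. The clone-named gene si:dkey-182i3.8 was also called higher in both comparisons, but against nkd1-/- it was called in 1 of the 6 fits without a sample (highest adjusted p = 0.138, edgeR). PELI3 and si:dkey-182i3.8 were named after their values were seen.

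Against axin2-/- alone, the double mutant was higher in U2, fut7, cyp2x6 and 8 further members. The call of fut7, at 1.05 ± 0.34 (SE), adjusted p = 0.0221 (edgeR), was lost without double mutant replicate 2 (0.0748) or axin2-/- replicate 2 (0.0662). For U2 the difference was 1.25 ± 0.24 (SE), adjusted p = 0.000715, and for cyp2x6 0.61 ± 0.14 (SE), adjusted p = 0.00302 (edgeR). The Huntingtin-associated gene hap1 averaged 53.9 ± 20.5 CPM in the double mutant, 23.6 ± 1.01 CPM in axin2-/- and 34.7 ± 9.65 CPM in nkd1-/- (SD, n = 3 each), against 8.45 ± 1.42 CPM in TL and 4.40 ± 0.648 CPM in Tu. It differed by 1.22 ± 0.24 (SE), adjusted p = 0.000711, between the double mutant and axin2-/- (edgeR). The NADPH oxidase gene cybb averaged 18.7 ± 4.89 CPM in the double mutant, 8.18 ± 0.952 CPM in axin2-/- and 12.7 ± 4.43 CPM in nkd1-/- (SD, n = 3 each), against 4.49 ± 0.898 CPM in TL and 3.82 ± 0.765 CPM in Tu. It differed by 1.23 ± 0.28 (SE), adjusted p = 0.00238 in that comparison (edgeR). In the other direction, the clone-named gene si:dkey-108k21.21 averaged 4.86 ± 0.954 CPM in the double mutant, 9.06 ± 1.64 CPM in axin2-/- and 2.87 ± 0.463 CPM in nkd1-/- (SD, n = 3 each), against 1.34 ± 0.192 CPM in TL and 0.987 ± 0.407 CPM in Tu. It was lower in the double mutant than in axin2-/-, at -0.86 ± 0.26 (SE), adjusted p = 0.0165 (edgeR), a call lost without double mutant replicate 2 (0.0751) or axin2-/- replicate 3 (0.0684). The genes hap1, cybb and si:dkey-108k21.21 were named after their values were seen.

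Among the lower members, SLC27A1, a fatty acid transport protein, was lowest in the double mutant. It had 23.5, 22.9 and 23.1 CPM in the double mutant, 41.0, 29.6 and 36.4 CPM in axin2-/- and 59.5, 32.9 and 51.7 CPM in nkd1-/-. The strains had 81.4, 73.0 and 76.3 CPM in TL and 103, 93.9 and 78.1 CPM in Tu. The double mutant samples were the 3 lowest, the samples of the single mutants overlapped, and all mutants were below the strains. The difference of the double mutant was -1.03 ± 0.15 (SE), adjusted p = 0.000255, against nkd1-/- and -0.59 ± 0.15 (SE), adjusted p = 0.00571, against axin2-/- in edgeR. SIRT5, a mitochondrial lysine deacylase, averaged 6.58 ± 1.01 CPM in the double mutant, 11.8 ± 5.67 CPM in axin2-/- and 13.9 ± 3.66 CPM in nkd1-/- (SD, n = 3 each), against 31.6 ± 1.55 CPM in TL and 29.8 ± 5.31 CPM in Tu. Its difference in the double mutant was -1.05 ± 0.25 (SE) against nkd1-/- and -0.81 ± 0.25 (SE) against axin2-/-, with adjusted p-values of 0.0102 and 0.0163 in edgeR. Both calls of SIRT5 were lost without double mutant replicate 3 (0.0635 and 0.0748), and that against axin2-/- also without axin2-/- replicate 1 (0.169) or with only the compared groups in the fit (0.0525). Other lower members called in both comparisons were ENSDARG00000104423, ENSDARG00000100640, slc36a4 and zgc:193790. Their adjusted p-values in edgeR were 0.000158, 0.00246, 0.00754 and 0.00439 against nkd1-/-, and 0.00366, 0.00335, 0.0239 and 0.0422 against axin2-/-. Against axin2-/-, slc36a4 and zgc:193790 were each called in 2 of the 6 fits without a sample, and not with only the compared groups fitted. That fit did not test ENSDARG00000104423. SLC27A1, SIRT5 and these other genes were named after their values were seen.

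Against axin2-/-, the double mutant was lower in tuba8l3, at -3.51 ± 0.59 (SE), adjusted p = 0.000227, and in coil, at -0.79 ± 0.19 (SE), adjusted p = 0.00434 (edgeR). The mutant levels of tuba8l3, given above, were close to silent, so its difference rests on few counts. TPM2, a tropomyosin of the actin cytoskeleton named after its values were seen, averaged 36.2 ± 7.51 CPM in the double mutant, 70.8 ± 5.29 CPM in axin2-/- and 45.7 ± 8.50 CPM in nkd1-/- (SD, n = 3 each), against 118 ± 47.9 CPM in TL and 132 ± 7.48 CPM in Tu. It was lower in the double mutant than in axin2-/-, at -0.93 ± 0.20 (SE), adjusted p = 0.00153 (edgeR). Against nkd1-/-, the double mutant was instead nearer to the strains in CXCR3, at 1.72 ± 0.46 (SE), adjusted p = 0.0194, and in CDK6, at 0.57 ± 0.18 (SE), adjusted p = 0.0432 (edgeR). CXCR3 was not called without double mutant replicate 1 or 3 or nkd1-/- replicate 1 or 2 (adjusted p up to 0.0791) or with only the compared groups fitted (0.0536). CDK6 was not called without any 1 of the 6 samples (0.0507 to 0.151), without the filter on low counts (0.061) or with a replicate block (0.0534).

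Between the single mutants, pcdh8 and neff1 were lower in axin2-/- than in nkd1-/-. The differences were -0.76 ± 0.19 (SE), adjusted p = 0.00501, for pcdh8 and -1.14 ± 0.31 (SE), adjusted p = 0.00877, for neff1 (edgeR). The clone-named gene si:dkey-108k21.21 was higher in axin2-/-, at 1.64 ± 0.27 (SE), adjusted p = 0.000167 (edgeR). Among the lower members, CXCR3 was higher in axin2-/- by 2.59 ± 0.45 (SE), adjusted p = 0.000271, and RIC8B was lower, at -1.16 ± 0.26 (SE), adjusted p = 0.0019 (edgeR). RIC8B and its neighbour si:dkey-103i16.6, which was also lower in axin2-/-, at -0.92 ± 0.28 (SE), adjusted p = 0.0158 (edgeR), are adjacent in the annotation. With only the compared groups fitted, the adjusted p of si:dkey-103i16.6 was 0.0559.

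**Figure D4:**
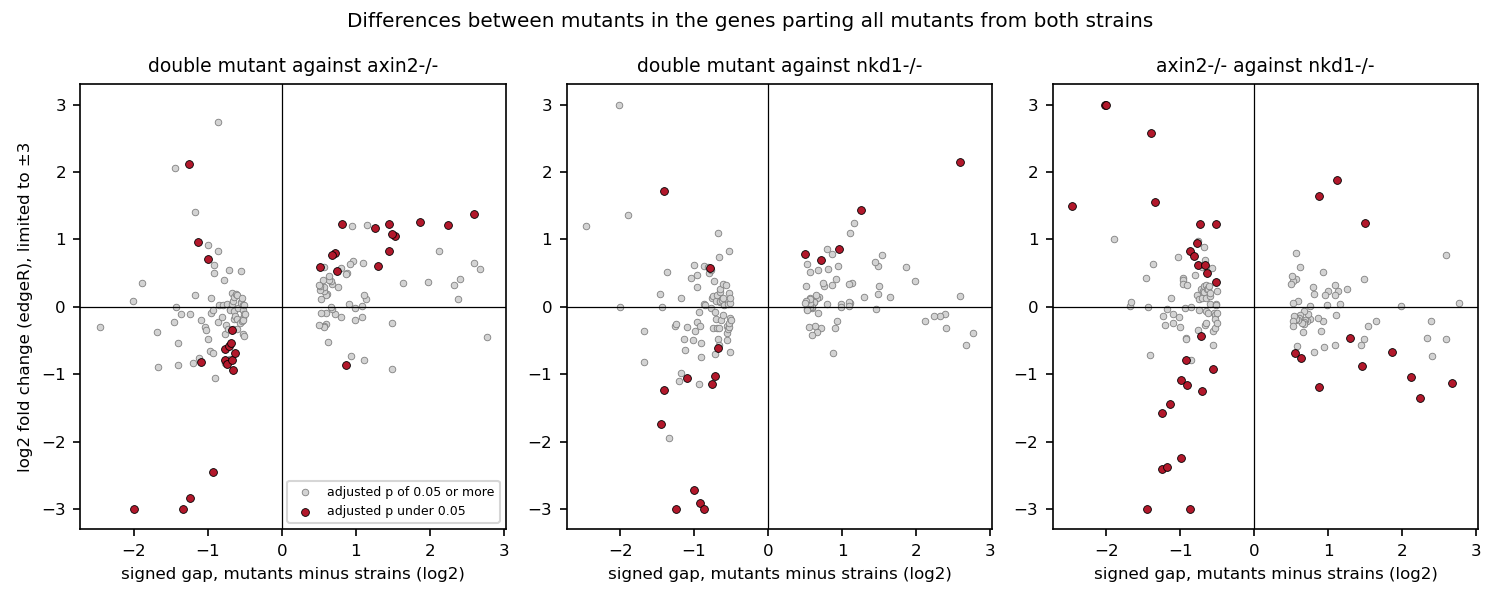
Each point is 1 of the 159 genes; the horizontal axis is the gap between mutants and strains (positive for higher members), and the vertical axis the log2 fold change in edgeR for the comparison above each panel, with values beyond 3 units drawn at 3. Filled red points passed an adjusted p of 0.05: in the left panel, the double mutant is farther from the strains in 28 of the 32 red points, and among the 820 matching genes called there in 73.7%.

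TL and Tu differed in fewer members than in genes at large, which the rule favours, since it bars a gap between the strains larger than that to the mutants. In TL against Tu 25 of 159 members (15.7%) were called, against 31.1% of all genes (15.3% higher and 15.7% lower). The count was 14 without TL replicate 2, and also 14 without Tu replicate 1, fits for which the share of all genes is not given. Of the higher members, 8 were higher and 5 lower in TL, and of the lower members, 3 were higher and 9 lower. RHCG, with the values given above, was -2.04 ± 0.41 (SE), adjusted p = 0.00113, in TL against Tu (edgeR). For cyp2x7 the strain difference was -1.06 ± 0.20 (SE), adjusted p = 0.000631, and for PRICKLE1 it was 0.80 ± 0.22 (SE), adjusted p = 0.011 (edgeR). POLR3E was lower in TL, at -0.64 ± 0.12 (SE), adjusted p = 0.000732, with all 3 TL samples below all 3 Tu samples (edgeR). The call of PRICKLE1 was lost without Tu replicate 1 (0.0577). Of the 25 members, 10 were called with each strain sample left out in turn. In 86 members, 36 higher and 50 lower, no call was made between any pair of mutants or between the strains. The rule favours this too, and the matching share of all genes is not given.

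The mutant sample nearest to the strains came more often from a single mutant than from the double mutant. With 3 samples in each group, the single mutants together also held more samples, and the matching counts over all genes are not given. On the higher side, that sample was axin2-/- replicate 1 in 18 members, axin2-/- replicate 3 in 16 and nkd1-/- replicate 1 in 11, and a double mutant sample in 2, 1 and 1. On the lower side, nkd1-/- replicate 1 was nearest in 20 members and axin2-/- replicate 1 in 17, and a double mutant sample in 10, 3 and 4. Among the strains, the nearest sample was TL replicate 2 in 17 higher and 23 lower members and Tu replicate 3 in 13 and 24. By group means, the double mutant was the highest mutant in 34 of the 69 higher members (49.3%), compared with 28.9% of all genes at 2 CPM. It was the lowest mutant in 38 of the 90 lower members (42.2%), compared with 32.1% of all those genes. These shares over all genes include genes whose mutant means do not all lie beyond both strain means. Among the 3045 genes whose means do, the double mutant was farther from the strains than axin2-/- in 63.3% and than nkd1-/- in 56.1%. The members' shares were 67.9% and 60.4%.

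Names and neighbours were looked up for what the rule did not use. A symbol was found for 153 of the 159 members. Of the 159, 34 (21.4%) carried a clone-based name such as si:ch211-171l17.7, against 12.4% of the 14383 genes at 2 CPM. Below 10 CPM the share of clone-based names was 25.9% among members and 17.9% among all genes, and from 10 CPM up it was 16.2% and 9.33%. Of the 99 members placed in the annotation order, 98 are annotated as protein coding and 1 as a long non-coding RNA. None of these 99 lay within 50 annotated genes of axin2 or nkd1, and the other members have no place in this order. The nearest placed members were METRNL, 175 genes from axin2, and polr2m, 157 genes from nkd1.

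Besides the cyp2x genes, 4 pairs of members lay next to each other or with 1 gene between them, and each pair moved in the same direction. Only the 99 placed members could form pairs, and how often genes at large lie this close is not given. The lower genes si:dkey-103i16.6 and RIC8B were adjacent, and so were the lower genes coil and SCPEP1. The higher genes pnpla7a and fut7 had 1 gene between them, and so did the lower genes ppp3cb and zgc:110843. Overlapping or shared reads between adjacent genes were not tested, since strand use in counting is not given in the sources used here.

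The same rule without its upper limit on the number of genes, applied to other divisions of the 5 groups, gave sets of other sizes. It found 586 genes that set axin2-/- and TL apart from the rest, 540 that set nkd1-/- and the double mutant apart from the rest, and 73 that set axin2-/- and the double mutant apart from the rest. The median gap was 0.93, 0.83 and 0.91 log2 units in these sets, against 0.81 in the 159 genes.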

How the data were processed

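RNA from 15 pools of 10 zebrafish embryos was sequenced. The authors deposited raw counts, whole numbers per Ensembl gene ID. GRCz11 and edgeR 3.30.3 are named in the submitters' processing notes, while the aligner, the counting tool and the use of strand are not given in the sources used here. CPM were computed from each sample's total. Differences were tested with edgeR 4.0.16 (R 4.3.3) on genes passing its expression filter (minimum count 10, minimum total count 15). All 5 groups shared 1 quasi-likelihood fit without covariates, with Benjamini-Hochberg adjustment over 21614 genes and a threshold of 0.05. Each SE is the absolute log2 fold change over the square root of the test's F value. It therefore restates the test and is no separate estimate of precision. The script was tested on simulated data. The alternatives were DESeq2 1.42.0, other scalings, pseudocounts, minimum levels and gaps, samples left out and a replicate block.

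The members and the gene lists were chosen with earlier results of these data known. Genes are named as the largest gaps with a symbol and the most abundant members on each side, members that neighbour each other, listed Wnt targets and members at the limit; others are marked in the text. Symbols are printed as the name table gives them, which paired 29201 of the 32520 IDs. That table writes some symbols in capitals and without a copy letter, and list names not found as such were matched without it. The reference annotation is of build GRCz12tu and was used only for names and gene order. No sequences were used.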

Additional observations from a re-analysis of the deposited data

How the results depend on the processing

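Samples with the same number did not deviate together (mean r = 0.02, from -0.07 to 0.14), so the numbers were not taken to pair the samples. With a replicate block the members called were 18 for double against nkd1-/-, 41 for double against axin2-/- (36 with the double mutant farther from the strains), 38 for axin2-/- against nkd1-/- and 29 for TL against Tu, and 11 Wnt targets were higher and 2 lower. DESeq2 called 24, 38, 42 and 30 members in these comparisons, and fits of only the groups compared called 13, 37, 26 and 33. For these settings, and for the fits with a sample left out, the share of all genes called is not given. A change in the members called therefore cannot be told apart from a change in the calls of all genes. A gap of at least 1 kept 27 higher and 25 lower members, and a minimum of 5 CPM kept 49 and 53. Trimmed-mean scaling gave 71 and 86. Leaving out 1 sample at a time gave 65 to 93 higher members (60 to 68 shared with the 69) and 81 to 108 lower members (77 to 90 shared with the 90). Leaving out a replicate number gave 79 to 108 (55 to 57 shared) and 85 to 132 (65 to 74 shared), the highest higher count, 108, without replicate 1. With 1 sample left out, 9 to 20 members were called between double and nkd1-/- (9 without double replicate 3), 24 to 35 between double and axin2-/- (20 to 32 with the double mutant farther), 28 to 34 between axin2-/- and nkd1-/-, and 14 to 24 between TL and Tu (14 without TL replicate 2, and 14 without Tu replicate 1). The Wnt targets called were then 10 to 12 higher and 2 to 3 lower. The gap of EMP3 was 3.47 with a pseudocount of 0.1 CPM and 1.39 with 1 CPM, against 2.01. Among the 35 members named by the criteria given above, and not those marked as named after their values were seen, no gap changed sign under trimmed-mean scaling. Other pseudocounts and left-out samples could not change a sign, since the rule bars any overlap of mutant and strain samples. Of 105 gaps under trimmed-mean scaling or other pseudocounts, 17 moved by more than the replicate spread. The settings for the Wnt counts and for how often the double mutant was farther were chosen after seeing the data. Leaving out samples reversed none of the members' calls. The causes were not tested. At these depths, values below 0.0440 to 0.0680 CPM rest on fewer than 3 counts.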
